A study of Homo sapiens with 9 samples.

Results

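GJA1, GJA3, GJB2 and GJC1 encode connexins, the proteins that build gap junctions, and PANX1 and PANX2 encode pannexins, which form related channels. These 6 genes were taken by symbol from the 57733 genes in each table, which hold 21 connexin and 3 pannexin genes in all. They were selected on their RPKM and read counts in these libraries: GJA1 was included because it separates the knockout clones, so its differences between lines are given as a description with no test. The material was PANC-1, a line from a human pancreatic carcinoma of ductal origin. The clones KO C22 and KO C28 had been made with CRISPR/Cas9 against KDM6A (UTX), a histone demethylase that removes a methyl mark placed by Polycomb, and the control, WT, was a PANC-1 line that received no guide RNA. Each knockout line is 1 clone, so a difference between a clone and WT cannot be told apart from one that was present in the founding cell. In all 9 libraries RNA was labelled with 2 mM bromouridine for 30 min and taken with a chase of 0 h. Bru-seq, which counts this newly made RNA over whole gene bodies, was done with 2 libraries per line. BruUV-seq, in which cells also received 100 J/m2 of UV light so that polymerases stall at lesions along the gene, was done with 1 library per line.

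Connexins assemble into a hemichannel that docks with its counterpart in the next cell, so that ions and small metabolites pass directly between the cytoplasms. Pannexins do not usually dock; they release ATP and other small molecules to the outside, where purinergic receptors sense them. In the pancreas, neighbouring acinar cells are coupled by gap junctions, and in carcinomas the level and placement of connexins vary widely between tumours and lines.

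The genomic positions in the tables are on hg38/GRCh38. GJA1, the gene of the widely expressed Cx43, covered chr6:121435692-121449727 on the plus strand. GJB2, the gene of Cx26, an epithelial connexin whose loss causes inherited deafness, covered chr13:20187470-20192898 on the minus strand, and GJA3, the gene of the lens connexin Cx46, covered chr13:20138255-20161049 on the same strand, 26.4 kb from GJB2. GJC1, the gene of Cx45, covered chr17:44798448-44830813 on the minus strand. PANX1 covered chr11:94128928-94181972 and PANX2 covered chr22:50170731-50180294, both on the plus strand. No other annotated gene in the tables overlapped any of the 6 gene bodies on either strand, and GJA1P1, a pseudogene of GJA1 on chromosome 5, was listed with 0 reads in all 9 libraries.

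The promoters of GJA1 and GJB2 are shown because these genes carried the main differences between the lines. RefSeq (GRCh38.p14) entries were matched for 4 of the 6 genes, and no entry was matched for GJC1 or PANX2. Each sequence is the 250 bases before the RefSeq start, 5′ to 3′ on the strand of the gene, at chr6:121435396-121435645 (plus) for GJA1 and chr13:20192939-20193188 (minus) for GJB2. Capitals mark matches, on either strand, to the AP-1 motif TGANTCA, bound by JUN and FOS proteins, and to the GC box GGGCGG, bound by SP1.
GJA1: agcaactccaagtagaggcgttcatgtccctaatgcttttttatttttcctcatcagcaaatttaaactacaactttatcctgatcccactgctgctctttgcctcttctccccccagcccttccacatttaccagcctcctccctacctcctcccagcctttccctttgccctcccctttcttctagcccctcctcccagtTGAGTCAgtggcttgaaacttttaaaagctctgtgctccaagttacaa
GJB2: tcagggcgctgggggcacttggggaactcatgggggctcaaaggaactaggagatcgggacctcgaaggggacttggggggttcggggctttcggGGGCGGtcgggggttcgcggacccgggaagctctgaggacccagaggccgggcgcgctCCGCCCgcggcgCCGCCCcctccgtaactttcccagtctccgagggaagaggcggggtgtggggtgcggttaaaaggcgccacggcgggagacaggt
The GJA1 promoter held 1 AP-1 match, 48 to 42 bases before the start, and no GC box, and it contained 48% G+C and 1 CpG. The GJB2 promoter held 3 GC boxes, at 155 to 150, 97 to 92 and 85 to 80 bases before the start, no AP-1 match, 70% G+C and 25 CpGs. The AP-1 letters occurred in 6.57% of 35116 promoters of the same length and the GC box in 42.6%, and the medians over all promoters were 58% G+C and 11 CpGs. GJA3 held 2 GC boxes and PANX1 held 1, and neither held an AP-1 match. No TATA box (TATAAA), which 10.7% of promoters held, was matched in any of the 4. The TEAD core GGAATG, present in 11.9% of promoters, was matched in GJA3 and PANX1 and not in GJA1 or GJB2. Only these letters in this window were searched.

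Depth differed between the libraries. Bru-seq KO C28 replicate 2 held 5.64 M reads in genes and the other 8 libraries held 14.4 to 31.1 M. That library also stood apart in another way, with 46.5% of its reads outside genes against 9.93% to 20.01% elsewhere. Its correlations with the other libraries across genes were 0.609 to 0.774, and the lowest among the others was 0.795. The differences of the tested members in KO C28, as fitted over both assays, are given with and without it. KDM6A itself was transcribed in all libraries, at 253 and 440 CPM (reads scaled to library size with TMM factors) in Bru-seq KO C22, 324 and 77.7 in Bru-seq KO C28, and 318 and 283 in Bru-seq WT. In BruUV-seq it was at 121 CPM in KO C22, 190 in KO C28 and 205 in WT. Bru-seq reads over the whole gene body do not show whether a small edit is present. Markers of duct-derived carcinoma cells (KRT7, KRT8, KRT18, KRT19 and SOX9) were all detected, whereas the 5 acinar markers stayed under 10 reads in every library. Of the 5 islet markers INS, SST and PPY had no reads in any library, CHGA had at most 3, and GCG had at most 18 in a library and 43 in all. Of the 5 immune markers 4 stayed under 10 reads in every library, and PTPRC had at most 51 in a library. The 5 immune markers summed to 0.585 to 3.33 RPKM, mostly from CD68, at 0.584 to 3.29 RPKM with at most 9 reads in a library. The 4 endothelial markers had at most 66 (CDH5), 56 (VWF), 39 (KDR) and 22 (PECAM1) reads in a library. They summed to 0.0184 to 0.301 RPKM, with the highest sum in Bru-seq KO C28 replicate 2.

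GJA1 had few reads in KO C22 and the most in KO C28 relative to depth, with WT between them. It had 17 and 8 reads in Bru-seq KO C22, 360 and 217 in Bru-seq KO C28, and 141 and 272 in Bru-seq WT. Scaled to length and depth (RPKM), these were 0.0530 and 0.0163 in KO C22, 1.39 and 1.47 in KO C28, and 0.387 and 0.647 in WT. In BruUV-seq the values were 7 reads (0.0312 RPKM) in KO C22, 325 reads (1.204 RPKM) in KO C28 and 164 reads (0.459 RPKM) in WT. In both assays, therefore, all libraries of KO C22 lay below and all libraries of KO C28 above those of WT, with no overlap. The mean in Bru-seq was 0.0347 ± 0.0259 RPKM in KO C22, 1.43 ± 0.0516 in KO C28 and 0.517 ± 0.184 in WT (SD, n = 2 each).

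The fitted differences in GJA1 transcription, from edgeR's quasi-likelihood model of all 9 libraries with a term for the assay, were -3.75 on the log2 scale (SE 0.58) for KO C22 against WT, 1.47 (SE 0.51) for KO C28 against WT and 5.22 (SE 0.61) for KO C28 against KO C22. The Bru-seq libraries alone gave -3.82 (SE 0.89), 1.40 (SE 0.80) and 5.22 (SE 0.95) for the same contrasts. In summed reads corrected for depth, GJA1 was 15.4-fold lower in KO C22 than in WT in Bru-seq (exact 95% interval 10.3 to 24.1) and 13.3-fold lower in BruUV-seq (6.31 to 33.6). KO C28 exceeded WT 2.77-fold in Bru-seq (2.43 to 3.15) and 2.48-fold in BruUV-seq (2.05 to 3.01). These intervals cover counting error only and leave out the spread between libraries. Reads without molecular identifiers can also be PCR copies, which the intervals do not take into account. Without Bru-seq KO C28 replicate 2 the differences from WT were -3.76 in KO C22 and 1.38 in KO C28 (both assays), and KO C28 lay 5.14 above KO C22. In bulk RNA, fewer cells that transcribe a gene and less RNA per cell cannot be told apart.

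**Figure D1:**
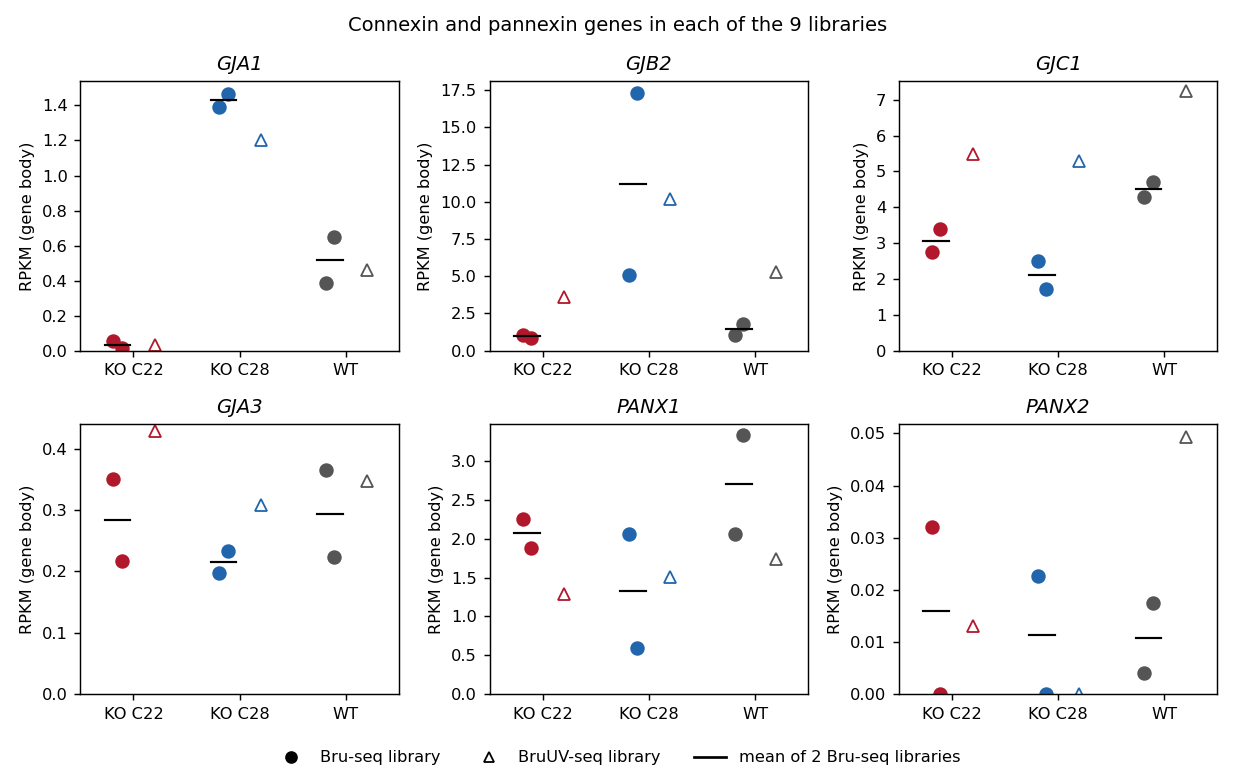
Gene-body RPKM (linear axis from 0) of the 6 genes in each library, with KO C22, KO C28 and WT from left to right. Filled circles are Bru-seq libraries, open triangles BruUV-seq libraries and bars the mean of 2 Bru-seq libraries. GJA1 sits at 0.0163 to 0.0530 in KO C22 and at 1.204 to 1.47 in KO C28, and PANX2 is at most 0.0493.

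Of the 20819 genes tested in both assays, 76 (0.365%) lay like GJA1, below WT in KO C22 and above WT in KO C28 in both assays on CPM, and 78 (0.375%) lay the other way round. GJA1 was chosen for this position, and the share is given as background only. For a single clone the same position was more common: 13.9% of genes lay below WT in KO C22 in both assays and 12% lay above WT in KO C28.

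GJB2 was the most abundant of the 6 genes per length in KO C28 and was higher there than in WT in both assays, by an amount that depended on 1 library. In Bru-seq it had 1.071 and 0.871 RPKM in KO C22, 5.09 and 17.3 in KO C28, and 1.08 and 1.82 in WT. In BruUV-seq it had 3.57 RPKM in KO C22, 10.2 in KO C28 and 5.27 in WT. Both Bru-seq libraries of KO C28 lay above both of WT, and the higher of them, replicate 2, was the library with few reads; the KO C22 libraries overlapped those of WT. The log2 difference of KO C28 from WT was 2.88 in Bru-seq (SE 0.74, adjusted p 0.728 in edgeR's test) and 2.46 in both assays (SE 0.61, adjusted p 0.234), so GJB2 did not pass. Leaving out Bru-seq KO C28 replicate 2 lowered these to 1.70 (adjusted p 1) and 1.42 (SE 0.37, adjusted p 0.274). DESeq2 on the same libraries passed GJB2, at 3.06 in Bru-seq (adjusted p 0.0147), where it passed 1.2% of the genes it gave an adjusted p, and 2.64 in both assays (adjusted p 0.00507), where it passed 3.86%. So did edgeR in both assays with no filter on low counts, at 2.57 (adjusted p 0.000137), a setting that passed 2.72% of genes. GJB2, like the other members, was selected on its values in these libraries, and these p-values do not take that into account. By summed reads the KO C28 excess over WT was 6.63-fold in Bru-seq (5.96 to 7.39) and 1.83-fold in BruUV-seq (1.66 to 2.01). These intervals cover counting error only and leave out the spread between libraries. In Bru-seq KO C28, replicate 1 had 509 reads (31.2 CPM) and replicate 2 had 989 (145 CPM). Whether the excess differed between the assays was not tested. For KO C22 against WT the log2 difference was -0.42 in Bru-seq (SE 0.69, adjusted p 1) and -0.38 in both assays (SE 0.57, adjusted p 0.998).

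The order of the lines in GJA1 was also that of the medians of the duct markers, which pool the assays. The summed RPKM of the 5 duct carcinoma markers was 16.8 to 69.7 over the libraries of KO C22 (median 28.7), 53.4 to 246 over those of KO C28 (167; 53.4 and 167 without Bru-seq KO C28 replicate 2) and 31.7 to 77.1 over those of WT (51.9), and all 5 markers had reads. The KO C28 median was its BruUV-seq library, whereas the medians of KO C22 and WT were Bru-seq libraries. In Bru-seq the sums were 28.7 and 16.8 in KO C22, 53.4 and 246 in KO C28, and 51.9 and 31.7 in WT. In BruUV-seq they were 69.7 in KO C22, 167 in KO C28 and 77.1 in WT. KRT18 and KRT19 carried the highest value, in Bru-seq KO C28 replicate 2, at 127 and 97.4 RPKM. None of the 5 passed edgeR's test in either clone; in KO C28 4 of 5 had an unadjusted p under 0.05 in both assays, as 10.5% of all genes did, and DESeq2 passed KRT18 and KRT19, against 3.86% of genes. The median of the 5 in KO C28 without Bru-seq KO C28 replicate 2 was 0.59 on the log2 scale in both assays, and 4 of 5 lay above WT. In Bru-seq alone without that library the median was -0.075, and 3 of 5 lay below WT. Their part in the GJA1 and GJB2 differences was not tested. Fibroblast markers (COL1A1, COL1A2, DCN, LUM and PDGFRA) summed to 0.220 to 1.69 RPKM in KO C22, 0.179 to 0.873 in KO C28 and 0.0614 to 0.259 in WT, mostly from COL1A1, and LUM and PDGFRA stayed under 10 reads in every library. Their part was not tested either.

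GJC1 was the most abundant of the 6 per length in KO C22 and in WT. In Bru-seq it had 2.75 and 3.39 RPKM in KO C22, 2.49 and 1.72 in KO C28, and 4.29 and 4.71 in WT, and in BruUV-seq it had 5.49 RPKM in KO C22, 5.30 in KO C28 and 7.24 in WT. On this scale both clones lay below WT in both assays; on TMM-scaled CPM, which set the counts of overlap here, KO C28 lay below WT in both assays, at 91.1 and 85.8 against 163 and 192 in Bru-seq, and KO C22, at 97.2 and 175, overlapped WT in Bru-seq. The log2 difference from WT was -1.15 for KO C28 in Bru-seq (SE 0.62, adjusted p 0.729) and -0.85 in both assays (SE 0.37, adjusted p 0.478). For KO C22 it was -0.35 (SE 0.62, adjusted p 1) and -0.29 (SE 0.37, adjusted p 0.994), so neither clone passed the test. Without Bru-seq KO C28 replicate 2 the KO C28 difference was -0.96 in Bru-seq (adjusted p 1) and -0.69 in both assays (adjusted p 0.927).

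GJA3 was transcribed at a low level in every library. It had 183 and 172 reads in Bru-seq KO C22, 83 and 56 in KO C28, and 216 and 152 in WT. Scaled to RPKM, these were 0.351 and 0.216 in KO C22, 0.198 and 0.233 in KO C28, and 0.365 and 0.223 in WT. In BruUV-seq it had 0.428 RPKM in KO C22, 0.308 in KO C28 and 0.346 in WT. On CPM, the clones overlapped WT in Bru-seq. The log2 difference in both assays was 0.25 for KO C22 (SE 0.50, adjusted p 0.998) and -0.32 for KO C28 (SE 0.50, adjusted p 0.831), or -0.43 for KO C28 (adjusted p 1.000) without Bru-seq KO C28 replicate 2. Its neighbour on the same strand, GJB2, was at 2.46 in KO C28 in the same fit and did not pass.

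PANX1, the gene of a widely expressed ATP-release channel, had 2.26 and 1.88 RPKM in Bru-seq KO C22, 2.06 and 0.587 in KO C28, and 2.07 and 3.34 in WT. In BruUV-seq it had 1.29 RPKM in KO C22, 1.51 in KO C28 and 1.74 in WT. On CPM, KO C28 lay below WT in both assays and KO C22 overlapped WT in Bru-seq and lay below it in BruUV-seq (82.1 against 99.6 CPM). The low Bru-seq value was again replicate 2 of KO C28. The log2 difference of KO C28 from WT was -1.09 in Bru-seq (SE 0.72, adjusted p 0.750) and -0.74 in both assays (SE 0.47, adjusted p 0.587), and it was -0.51 in Bru-seq (adjusted p 1) and -0.33 in both assays without that library. For KO C22 it was -0.23 (SE 0.72, adjusted p 1) and -0.21 (SE 0.46, adjusted p 0.998).

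PANX2, a pannexin best known from the brain, was close to undetected. It had 7 and 0 reads in Bru-seq KO C22, 4 and 0 in KO C28, and 1 and 5 in WT, and in BruUV-seq it had 2 reads in KO C22, 0 in KO C28 and 12 in WT. It lay below the filter on low counts and was not tested. A count of 0 in Bru-seq KO C22 replicate 2, Bru-seq KO C28 replicate 2 and BruUV-seq KO C28 allows up to 0.137, 0.438 and 0.159 CPM, taking 3 reads as the limit.

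Each comparison was read against its background. In Bru-seq 0 of the 4 members tested other than GJA1 passed the adjusted threshold of 0.05 in either clone, where 1 of 22827 genes (0.00438%) passed in each. In both assays again 0 of 4 passed, where 37 of 20819 genes (0.178%) passed in KO C22 and 26 (0.125%) in KO C28. At an unadjusted p under 0.05, 0 of the 4 were counted in KO C22 in either fit, and in KO C28 GJB2 in Bru-seq and GJB2 and GJC1 in both assays; over all genes 2.01% were counted in KO C22 and 6.28% in KO C28 in Bru-seq, and 5.86% in KO C22 and 10.5% in KO C28 in both assays. DESeq2 passed 0 of the 4 in KO C22, against 0.703% of genes in Bru-seq and 1.98% in both assays, and 1, GJB2, in KO C28, against 1.2% and 3.86%. On CPM, none of these 4 members was free of overlap with WT in Bru-seq KO C22, against 28.2% of genes (21.9% with the same side in BruUV-seq). In Bru-seq KO C28, 3 of the 4 were, against 36.4% of genes: GJB2 above WT, as 18.3% of genes were, and GJC1 and PANX1 below it, as 18.2% were. These 3 had the same side in BruUV-seq, against 27.8% of genes (12% above and 15.7% below). P-values measure the spread between these libraries, which the labels do not describe as separate cultures.

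**Figure D2:**
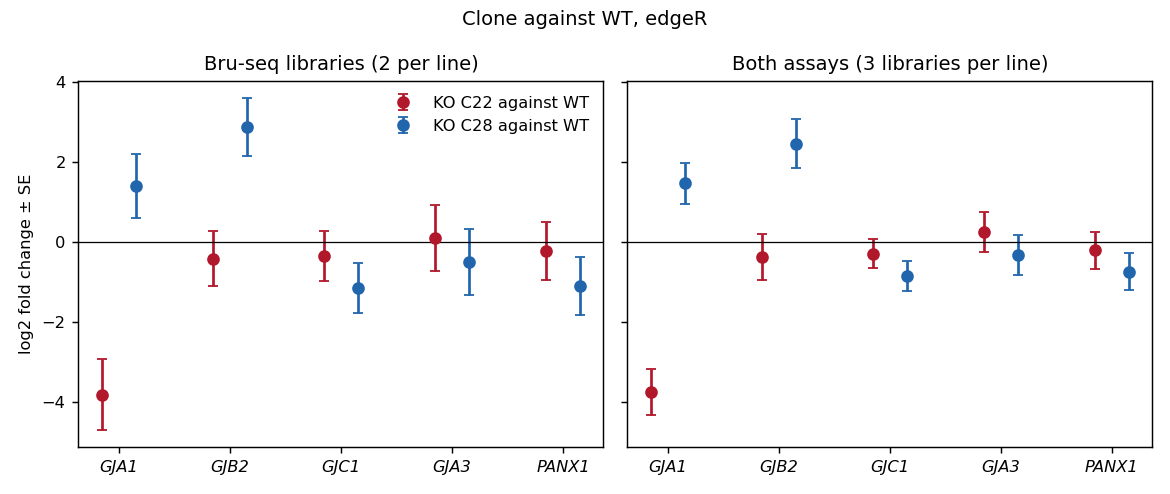
Log2 fold change with SE of each gene in KO C22 (red) and KO C28 (blue) against WT, from the 6 Bru-seq libraries (left) and from all 9 (right). GJA1 is at -3.75 in KO C22 and 1.47 in KO C28 with both assays; of the other genes GJB2 in KO C28 lies farthest from 0, and PANX2 was not tested.

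The order of the genes per length was not the same in every line. In Bru-seq KO C22 the order of mean RPKM was GJC1 (3.07), PANX1 (2.07), GJB2 (0.971), GJA3 (0.284), GJA1 (0.0347) and PANX2 (0.0160), and GJA1 overlapped PANX2. In Bru-seq KO C28 it was GJB2 (11.2), GJC1 (2.11), GJA1 (1.43), PANX1 (1.32), GJA3 (0.215) and PANX2 (0.0114), and GJA1 overlapped PANX1. In Bru-seq WT it was GJC1 (4.50), PANX1 (2.70), GJB2 (1.45), GJA1 (0.517), GJA3 (0.294) and PANX2 (0.0108). Apart from these overlaps, both libraries of each gene lay above both of the next in its line. By these Bru-seq means GJA1 held place 5 in KO C22, place 3 in KO C28 and place 4 in WT. Its place in KO C28 rested on Bru-seq replicate 2, where PANX1 was at 0.587 RPKM and GJA1 at 1.47. In Bru-seq KO C28 replicate 1 PANX1 (2.06 RPKM) lay above GJA1 (1.39). In BruUV-seq GJA1 held place 5 in KO C22 and place 4 in both KO C28 and WT. Across the 9 libraries, which share lines and depth, log2 CPM of GJA1 correlated with that of GJB2 at r = 0.66, GJA3 at -0.57, GJC1 at -0.30 and PANX1 at -0.30, and GJB2 correlated with PANX1 at -0.81. These libraries also mix Bru-seq and BruUV-seq. Bru-seq KO C28 replicate 2 had both the highest GJB2 (145 CPM) and the lowest PANX1 (47.9 CPM). The part of the assay and of that library in these correlations was not tested.

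The rest of the family was sparsely transcribed. Of the 18 other connexin and pannexin genes, 8 stayed under 10 reads in every library, 2 of them with no read in any, and 10 reached 10 reads somewhere. GJB6, the gene of Cx30, on the same strand of chromosome 13 as GJB2, had 5 and 8 reads in Bru-seq KO C22, 12 and 46 in KO C28, and 35 and 92 in WT, and in BruUV-seq it had 11 reads in KO C22, 75 in KO C28 and 101 in WT. The KO C22 libraries held the fewest in both assays. Its log2 difference of KO C22 from WT was -2.79 in both assays (SE 0.95, adjusted p 0.560) and did not pass. GJA5, a connexin of arteries and atria, had 48 reads in Bru-seq KO C22 replicate 1 and 21 in Bru-seq KO C28 replicate 2, and 0 or 1 in the other 7 libraries. GJA9, GJA10, GJB7, GJC3, GJE1 and PANX3 had at most 24 reads in any library. Of the 20 connexins other than GJA1, 9 were tested in Bru-seq and 6 in both assays, and 0 passed edgeR's test in either clone. At an unadjusted p under 0.05 only GJB6 in KO C22 and GJB2 and GJC1 in KO C28 were counted. Over all genes in both assays 5.86% were counted in KO C22 and 10.5% in KO C28. DESeq2 passed GJB2 in KO C28 alone, where it passed 1.2% of genes in Bru-seq and 3.86% in both assays.

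Genes known to act on Cx43 or to sit with it at the membrane were compared next, from a list of 25 that includes scaffolds, cadherins, kinases and ubiquitin ligases. None of the 24 tested passed edgeR's test in either clone or fit; in both assays 2 in KO C22 and 4 in KO C28 had an unadjusted p under 0.05, where 5.86% of genes in KO C22 and 10.5% in KO C28 had one. In KO C28, 20 of 24 lay below WT in Bru-seq and 19 of 24 in both assays, with medians of -0.55 and -0.36 on the log2 scale against -0.08 and -0.06 for all genes tested. Without Bru-seq KO C28 replicate 2, 17 of 24 lay below WT in Bru-seq and 14 of 24 in both assays, with medians of -0.20 and -0.16 against -0.10 and -0.0050 for all genes tested. In KO C22, 13 of 24 in Bru-seq and 14 of 24 in both assays lay above WT, with medians of 0.10 and 0.12 against 0.07 and 0.02. The members with the highest mean RPKM were CAV1 (13.2), a caveolar coat protein; EZR (8.81), which tethers membranes to actin; CSNK1D (5.17), a kinase; and DBN1 (3.94), an actin-binding protein. In both assays CAV1 was at 0.21 in KO C22 (SE 0.56, adjusted p 0.998) and -0.56 in KO C28 (SE 0.57, adjusted p 0.743). EZR was at -0.17 in KO C22 (SE 0.54, adjusted p 0.998) and -1.43 in KO C28 (SE 0.55, adjusted p 0.461). DBN1 was at 1.04 in KO C22 (SE 0.56, adjusted p 0.938) and 1.62 in KO C28 (SE 0.55, adjusted p 0.457), and CSNK1D at -0.26 in KO C22 (SE 0.42, adjusted p 0.998) and 0.03 in KO C28 (SE 0.42, adjusted p 0.981). Nearest the threshold, and named for that after their values were seen, were the cadherin CDH2 in KO C22 at 1.98 (SE 0.37, adjusted p 0.0661) and the tight junction protein OCLN in KO C28 at -2.76 (SE 0.51, adjusted p 0.0834). DESeq2 passed both, and also the cadherin CDH1 in KO C22, which edgeR put at -3.33, with SE 0.86 and adjusted p 0.259 (both assays); it passed 1.98% of genes in KO C22 and 3.86% in KO C28 there. The KO C28 difference without Bru-seq KO C28 replicate 2 was -1.24 for EZR (adjusted p 0.870), 0.84 for DBN1 (adjusted p 1.000) and -2.35 for OCLN (adjusted p 0.0779).

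Other channels of large pore and the receptors and enzymes of extracellular nucleotides, which act downstream of pannexin channels, did not pass edgeR's test with all libraries either. Of 11 large-pore channel genes, 5 were tested, all from the LRRC8 family of volume-regulated anion channels, and 0 passed. LRRC8C (mean 2.58 RPKM) was at 1.08 in KO C22 (SE 0.42, adjusted p 0.714) and 0.63 in KO C28 (SE 0.42, adjusted p 0.603) in both assays. LRRC8D (2.204 RPKM) was at 0.59 in KO C22 (SE 0.59, adjusted p 0.992) and 0.32 in KO C28 (SE 0.59, adjusted p 0.860), and at -0.57 in KO C28 without Bru-seq KO C28 replicate 2. LRRC8B (1.26 RPKM) was at -0.26 in KO C22 (SE 0.44, adjusted p 0.998) and -0.96 in KO C28 (SE 0.45, adjusted p 0.483), and LRRC8A (0.688 RPKM), the subunit these channels require, was at 0.06 in KO C22 (SE 0.37, adjusted p 0.998) and 0.07 in KO C28 (SE 0.37, adjusted p 0.953). LRRC8C in KO C22 had an unadjusted p under 0.05 in both assays, as 5.86% of genes did. DESeq2 passed 0 of the 5, against 1.98% of genes in KO C22 and 3.86% in KO C28 in both assays. Of 26 nucleotide signalling genes, 16 were tested in Bru-seq and 15 in both assays, and 0 passed. In KO C22 0 had an unadjusted p under 0.05, where 2.01% of genes did in Bru-seq and 5.86% in both assays. In KO C28 11 of 16 lay below WT in Bru-seq (median -0.75) and 11 of 15 in both assays (median -0.50). The medians of all genes tested were -0.08 and -0.06. In KO C22 5 of 16 (median 0.39) and 7 of 15 (median 0.16) lay below WT, against medians of 0.07 and 0.02 for all genes. Without Bru-seq KO C28 replicate 2, 13 of 17 in KO C28 lay below WT in Bru-seq (median -0.94) and 10 of 15 in both assays (median -0.26). All genes tested then had medians of -0.10 and -0.0050. NT5E, which makes adenosine from AMP, had a mean of 7.37 RPKM and was at 0.56 in KO C22 (SE 0.54, adjusted p 0.992) and -0.50 in KO C28 (SE 0.55, adjusted p 0.758). ADORA2B, an adenosine receptor (3.01 RPKM), was at 0.16 in KO C22 (SE 0.58, adjusted p 0.998) and -0.39 in KO C28 (SE 0.59, adjusted p 0.827). The nucleotide receptor genes P2RY11 (1.01 RPKM) and P2RX4 (0.436 RPKM) were at 0.37 and -0.49 in KO C22 (SE 1.28 and 0.55, adjusted p 0.998 and 0.993) and at -0.31 and -0.34 in KO C28 (SE 1.31 and 0.55, adjusted p 0.943 and 0.840). ADORA1, another adenosine receptor, named after its value was seen, was at 4.69 in KO C28 (SE 0.77, adjusted p 0.05004) at a mean of 0.0641 RPKM, just over the threshold. It was 1 of 2 list members, of 15 tested, with an unadjusted p under 0.05 in that fit, where 10.5% of genes had one. ADORA1 was passed by DESeq2, which passed 3.86% of genes there. It was at 4.48 without Bru-seq KO C28 replicate 2 and passed (adjusted p 0.0446), where 0.305% of genes passed.

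The transcribed genes around GJA1 lay closer to WT than GJA1 did in both clones. Within 1000 kb of either end the tables list 21 other genes, of which 16 had under 10 reads in every library and 3 had a mean of at least 100 reads. TBC1D32, a ciliary gene on the opposite strand 101.2 kb from GJA1, was at -0.18 in KO C22 (SE 0.43) and -0.46 in KO C28 (SE 0.43) on the log2 scale in both assays. HSF2, a heat shock transcription factor 949.8 kb away, was at -0.33 in KO C22 (SE 0.42) and -0.37 in KO C28 (SE 0.42). SERINC1, 993.6 kb away, was at 0.11 in KO C22 (SE 0.37) and -0.12 in KO C28 (SE 0.37).

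**Figure D3:**
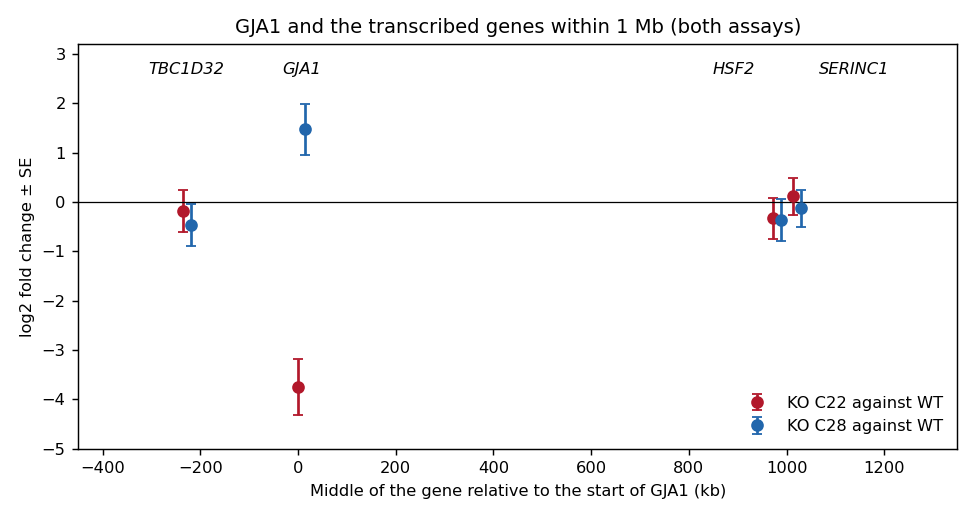
Log2 fold change with SE against WT (both assays) of GJA1 and the 3 genes within 1000 kb with a mean of at least 100 reads, by the distance of the middle of the gene from the start of GJA1. Red is KO C22 and blue is KO C28. The neighbours lie between -0.46 and 0.11, and GJA1 lies at -3.75 and 1.47.

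Near the other members, EFTUD2, a spliceosome gene 19.1 kb from GJC1, was at -0.37 in KO C22 (SE 0.37) and -0.17 in KO C28 (SE 0.37), and DBF4B, 46.2 kb away on the other side, was at -0.37 in KO C22 (SE 0.60) and -0.20 in KO C28 (SE 0.60). GJC1 itself was at -0.29 in KO C22 and -0.85 in KO C28. ZMYM2, 46.4 kb from GJA3, was at -0.21 in KO C22 (SE 0.40) and -0.55 in KO C28 (SE 0.41). TRABD, 5.6 kb from PANX2, was at -0.23 in KO C22 (SE 0.51) and 0.46 in KO C28 (SE 0.51).

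Few other genes followed the profile of GJA1. Among 11810 genes with a mean of at least 100 reads, 0.567% reached a Pearson r of 0.8 with GJA1 over the 9 libraries on log2 CPM. The 5 most alike were SPARC (r = 0.97), MEST (0.94), ZNHIT3 (0.94), LXN (0.92) and LONRF2 (0.92), each on a chromosome other than that of GJA1. Their log2 differences of KO C22 from WT in both assays were, in that order, -3.44, -1.08, -0.82, -2.22 and -2.90. For KO C28 they were 1.85, 0.19, 0.31, 1.55 and -0.17, so MEST, ZNHIT3 and LONRF2 stayed near WT there. SPARC, a secreted matrix protein, had 1.62 and 0.411 CPM in Bru-seq KO C22, 25.2 and 42.1 in KO C28, and 4.21 and 13.4 in WT, and in BruUV-seq it had 0.150 CPM in KO C22, 20.9 in KO C28 and 6.08 in WT. Like those of GJA1, its libraries did not overlap between lines in Bru-seq. LXN, a carboxypeptidase inhibitor, had 7.98 and 6.99 CPM in Bru-seq KO C22, 68.5 and 313 in KO C28, and 21.04 and 71.5 in WT, so that its KO C28 and WT libraries overlapped. The 3 most unlike were CDH2 (r = -0.95), MYO5A (-0.94) and LACTB (-0.93). CDH2, N-cadherin, had 93.3 and 145 CPM in Bru-seq KO C22, 24.9 and 20.6 in KO C28, and 28.7 and 22.8 in WT, and in BruUV-seq it had 71.9 CPM in KO C22, 16.2 in KO C28 and 27.97 in WT. It was thus highest in KO C22, the clone with the least GJA1, in both assays. The libraries share lines and depth, and r is a description here; 2 of the 5 most alike remained with Bru-seq alone and 3 with log2 RPKM.

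**Figure D4:**
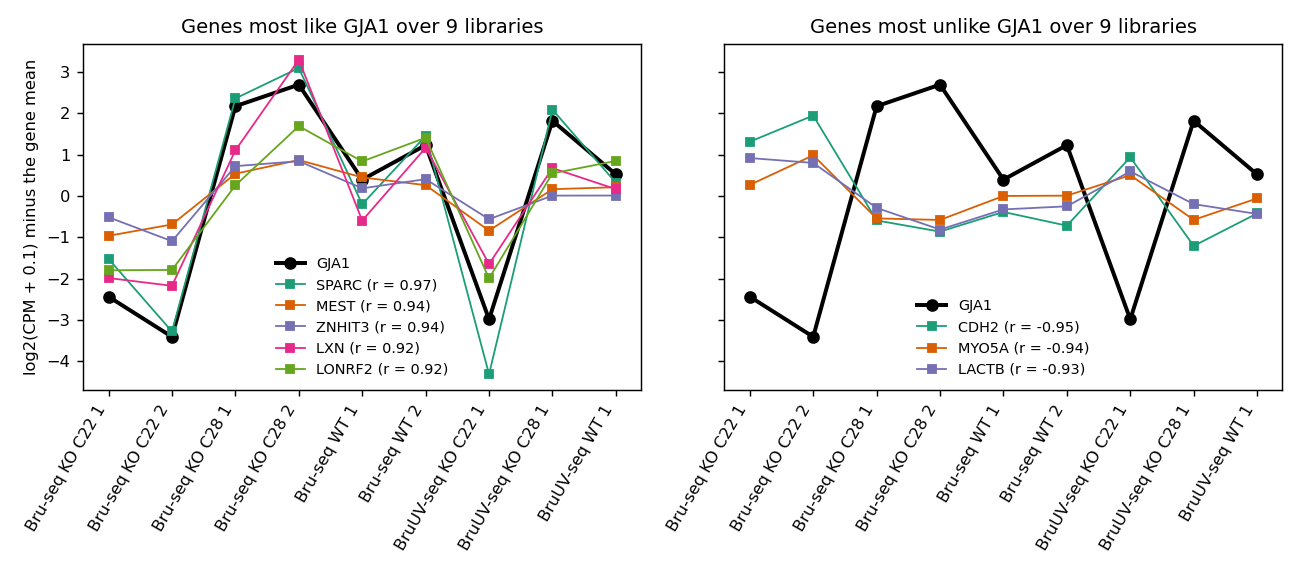
Log2(CPM + 0.1) minus the mean of the gene in each of the 9 libraries, for GJA1 (black) with the 5 genes most like it (left) and the 3 most unlike it (right). SPARC follows GJA1 in size as well as order (r = 0.97), and CDH2 runs opposite (r = -0.95) over a smaller range.

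BruUV-seq was compared with Bru-seq over all lines, a contrast that the choice of genes did not use. Of the 5 members tested 0 passed edgeR's test and 0 passed DESeq2's, and GJB2 and GJC1 had an unadjusted p under 0.05, where 93 of 20819 genes (0.447%) passed edgeR's test, 18.9% of genes passed DESeq2's and 25% had such an unadjusted p. GJB2 was at 1.13 on the log2 scale (SE 0.50, adjusted p 0.189), GJC1 at 0.78 (SE 0.31, adjusted p 0.162), GJA3 at 0.28 (SE 0.43, adjusted p 0.699), GJA1 at -0.35 (SE 0.46, adjusted p 0.653) and PANX1 at -0.52 (SE 0.41, adjusted p 0.439). Over all genes tested the contrast falls with gene length from about the length of GJB2 upward, so these values were set beside genes of like length, with a ratio of shorter over longer of at least 0.8. The median of such genes was 0.77 for GJB2 (5.4 kb), 0.44 for GJA1 (14 kb), 0.16 for GJA3 (22.8 kb), 0.01 for GJC1 (32.4 kb) and -0.27 for PANX1 (53 kb). GJA1 lay below, and GJC1 above, the middle 50% of genes of like length, -0.21 to 1.10 for GJA1 and -0.56 to 0.65 for GJC1. Without Bru-seq KO C28 replicate 2, GJB2 was at 1.48 and passed (adjusted p 0.0156), as did 15% of genes (3305 of 21986) in that fit. With a gene length offset GJB2 was at 0.38 (adjusted p 0.704).

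**Figure D5:**
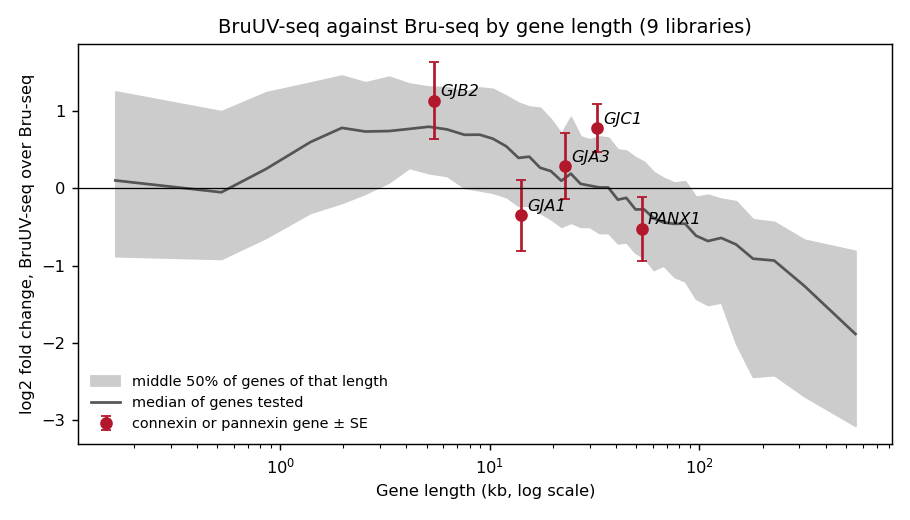
Log2 fold change of BruUV-seq over Bru-seq (9 libraries, line as a covariate) against gene length in kb on a log axis. The line is the median and the band the middle 50% of genes tested, and red points with SE are the members. GJA1 (-0.35) lies under the band and GJC1 (0.78) over it.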

How the data were processed

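Nascent RNA was measured in 9 libraries of PANC-1 lines. Per the submitters' processing notes the tools were CASAVA 1.8.2, Bowtie2 2.3.3, STAR 2.5.3a and bedtools 2.16.2 on hg38/GRCh38, with roles not stated; no source used here names the annotation release. From their values, the deposited tables hold an expected count per gene body, made by the authors and in part fractional, and the authors' RPKM, which is that count over gene length and a library total above the sum over genes; per the labels' protocols strand-specific synthesis applied to certain samples only. Members and gene lists were chosen with earlier results of these data known.

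Counts were rounded and tested with edgeR 4.0.16 (R 4.3.3): filterByExpr, TMM, quasi-likelihood F tests, Benjamini-Hochberg at 0.05 over all genes tested. The 6 Bru-seq libraries (22827 genes, biological coefficient of variation 79.3%) were fitted with 1 coefficient per line, and all 9 (20819 genes, 63.4%) with a term for the assay added. The comparisons share the WT libraries. The SE is the size of the log2 fold change over the square root of F. DESeq2 1.42.0, other size factors, no filter, a gene length offset, a replicate block and leaving out each library were alternatives. The tests were tried on simulated counts at the measured spread and at a lower one. Recovery of known changes was required only at the lower spread, and recovery at the measured spread is not reported here. Overlap between lines was judged on CPM, and levels between genes on RPKM. Ratios of summed reads have exact binomial intervals at 95%. The labels do not say that replicate numbers pair libraries, and no block was used: deviations of same-numbered libraries correlated at 0.43 (KO C22 and WT), 0.0041 (KO C28 and WT) and -0.48 (KO C28 and KO C22).

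Named genes were all 6 members, up to 4 genes per list with the highest mean RPKM, other family members with at least 10 reads in a library, neighbours with a mean of at least 100 reads, and the genes most and least like GJA1 by Pearson r among genes with a mean of at least 100 reads. Exceptions are marked where they occur. Some family members that the rule names are not reported here.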

Additional observations from a re-analysis of the deposited data

Results flagged for a closer look

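GJA1 lay on opposite sides of WT in the clones, below it in every KO C22 library and above it in every KO C28 library, and the log2 difference of KO C28 from KO C22 was 5.22 with both assays. This is the pattern for which GJA1 was listed, and the difference was not tested.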

How the results depend on the processing

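GJA1 kept its direction under every alternative run, at -4.61 to -3.33 in Bru-seq and -4.16 to -3.46 in both assays for KO C22 against WT, 1.01 to 1.86 and 1.21 to 1.69 for KO C28 against WT, and 4.87 to 5.62 for KO C28 against KO C22 in both assays; log2(RPKM + 0.1) gave -2.18 for KO C22 against WT. Numbers of genes called depended on the setting. For KO C22 against WT in Bru-seq (1 gene) they were 92 with DESeq2, 2 with DESeq2's size factors in edgeR, 43 with no filter and 0 to 22 leaving out 1 library. For KO C28 against WT in Bru-seq (1 gene) they were 199 with DESeq2, 190 with no filter and 0 to 179 leaving out 1 library. In both assays KO C22 against WT (37 genes) gave 348 with DESeq2, 272 with no filter and 3 (without Bru-seq WT replicate 1, or 2) to 142 (without Bru-seq KO C28 replicate 2), and KO C28 against WT (26 genes) gave 711 with DESeq2, 1100 with no filter and 1 (without Bru-seq WT replicate 2, BruUV-seq KO C28 or BruUV-seq WT) to 67 (without Bru-seq KO C28 replicate 2). KO C28 against KO C22 (0 genes, 1189 at an unadjusted p under 0.05) gave 226 with DESeq2, 230 with no filter, 2 with the gene length offset and 0 to 18, and BruUV-seq against Bru-seq (93 genes) gave 3866 with DESeq2, 2326 with no filter, 1 with the other size factors, 0 with the length offset and 0 (without Bru-seq WT replicate 1 or any 1 BruUV-seq library) to 3305 (without Bru-seq KO C28 replicate 2). The replicate block gave 0 genes in both clones in Bru-seq; the crossed block, with the KO C28 numbers swapped and chosen after seeing the data, gave 2 in KO C22 and 1 in KO C28. Small differences of KO C22 from WT changed sign: in Bru-seq GJA3 was at -0.07 without KO C22 replicate 1 and -0.18 without WT replicate 2, and without WT replicate 2 GJB2 was at 0.060 and PANX1 at 0.22, and at 0.082 in both assays. Leaving out 1 library gave -0.18 to 0.42 for GJA3, -0.80 to 0.060 for GJB2 and -0.58 to 0.22 for PANX1 in Bru-seq, and -0.40 to 0.082 for PANX1 in both assays. Of the 5 genes most like GJA1, 2 remained with the Bru-seq libraries alone and 3 with log2(RPKM + 0.1). The cause of these changes was not tested. At this depth PANX2, with at most 12 reads in a library, could not be tested.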
